A study of Mus musculus with 8 samples.

Results

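The genes described here are 46 Wnt ligands, receptors, antagonists and readouts, taken by name from the array's annotation. They comprise 19 ligands, 10 frizzled receptors, the 2 co-receptors Lrp5 and Lrp6, 7 secreted antagonists of the Dkk and Sfrp families, 3 R-spondins, 3 TCF/LEF transcription factors and the feedback targets Axin2 and Nkd1. All 46 were found, on 58 of 55583 probes and among 34736 gene names with a value. RNA came from mouse embryonic stem cells that were wild type or carried the R141C missense change of Nkx2-5, a cardiac homeobox factor, on 1 allele (heterozygous), either undifferentiated (day 0) or after 6 days of differentiation in embryoid bodies towards cardiac progenitors. The aggregates spent 2 days in hanging drops without LIF, the cytokine that keeps the cells undifferentiated, then 3 days in suspension, and were plated on gelatin at day 5. Each of the 4 groups had 2 biological replicates, 8 cultures in all, and each culture was hybridised to a single-colour Agilent array. The labels name no second clone of either genotype, and the place of an array on the slide cannot be told apart from its group.

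Wnt proteins are secreted lipid-modified ligands that bind frizzled receptors. In the canonical branch, a frizzled and Lrp5 or Lrp6 together stop the breakdown of beta-catenin, which then acts with TCF/LEF factors on target genes such as Axin2, while ligands such as Wnt5a and Wnt11 are known chiefly for signalling without beta-catenin, in cell movement and polarity. Dkk proteins block the LRP co-receptors, Sfrp proteins bind the ligands themselves, and R-spondins raise the number of receptors on the cell surface. In the early embryo and in embryoid bodies canonical signalling is needed to form the primitive streak and mesoderm, and later its inhibition favours the heart lineage.

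Signals are given as log2 intensity relative to the 75th percentile of each array, which was set to 0, so a difference of 1 is 2-fold. They compare 1 gene between arrays and not the genes with each other. A gene counted as changed when its adjusted p was under 0.05 in limma, a linear model fitted to 25892 tested genes together. Of the 46 genes, 39 were well above background on all 8 arrays and 44 were tested. Wnt2, Wnt2b, Wnt7a, Dkk2 and Rspo2 were tested although they were above background on 4, 2, 4, 4 and 5 of the 8 arrays, and such a gene passed the filter through the groups in which it was bright. Wnt3a was above background on no array, so it was not tested. Wnt8b was not tested either, since its brighter probe was above background on 2 arrays but not on both of any group, although over its 2 probes together the gene was above background on both wild-type day 0 arrays. Every frizzled receptor, both LRP co-receptors and all 3 TCF/LEF factors were above background on every array, while 14 of the 19 ligands were.

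Across the arrays the 75th percentile of the processed signal ranged from 936 to 1848 and the share of probes well above background from 55.75% to 70.5%. All 6 markers of pluripotent cells, Pou5f1, Nanog and Sox2 among them, were above background on every array, and their summed level (log2) was 7.40 to 8.36 at day 0 and 4.40 to 5.17 at day 6. Of the 6 cardiomyocyte markers, all were above background on both wild-type day 6 arrays and 5 on both R141C day 6 arrays, Ttn being above it on 1 of 2. Transcript of Nkx2-5 was measured, but an array probe does not see a point mutation, so this is no check of the genotype labels. Its log2 signal was -1.27 and -2.02 in wild type and 1.84 and -0.77 in R141C at day 0, and 1.93 and 1.79 in wild type and 1.53 and 1.58 in R141C at day 6. At day 0 replicate 1 of wild type correlated more closely across genes with both R141C arrays (r of 0.991 and 0.987) than with its own replicate (0.9825), and at day 6 replicate 2 of R141C correlated more closely with both wild-type arrays (0.988 and 0.989) than with its own replicate (0.982).

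**Figure D1:**
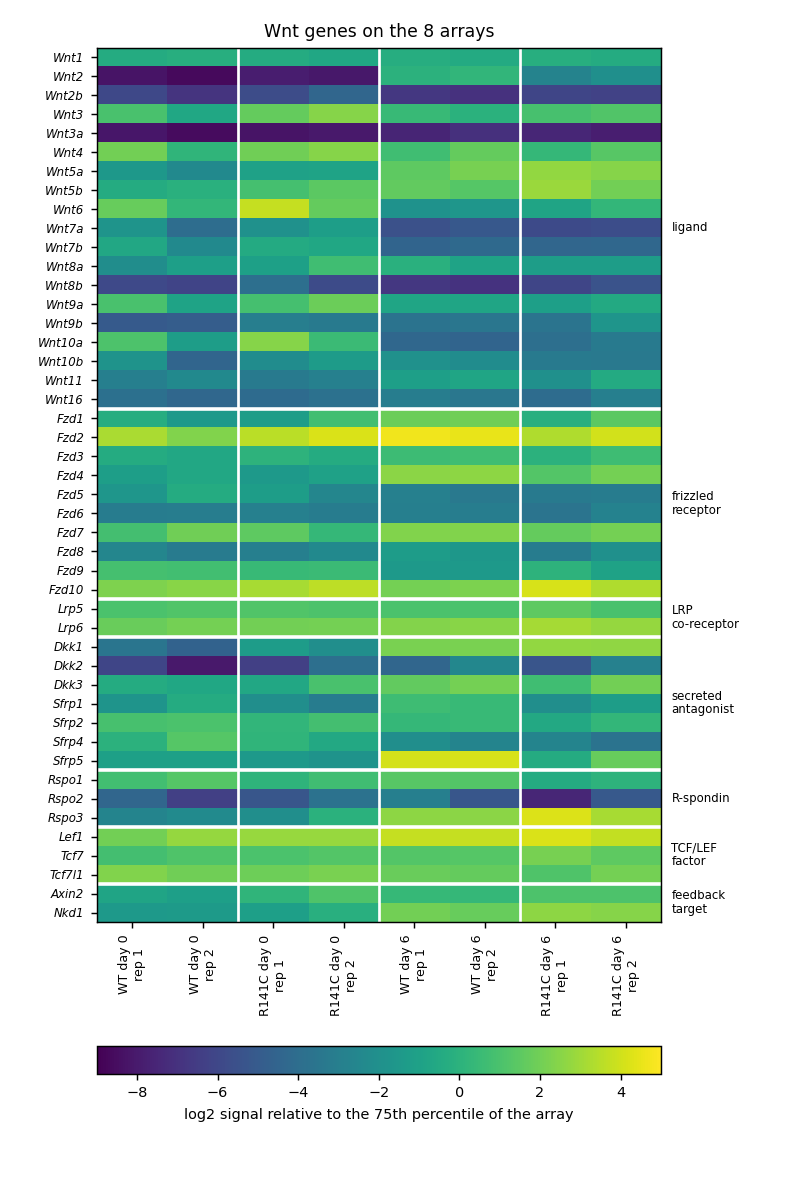
Log2 signal of the 46 genes (rows, in order of role) on the 8 arrays (columns, by group and replicate), relative to the 75th percentile of the array. Wnt2 and Dkk1 are dark at day 0 and light at day 6 in both genotypes, Wnt7a, Wnt7b and Wnt10a go the other way, and Sfrp5 is lightest on the wild-type day 6 arrays. Colours compare arrays within a row.

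Before the values, 2 sets of sequences show what the arrays and the promoters of these genes can tell. TCF/LEF factors bind CTTTGAA and CTTTGAT, and both spellings were searched on both strands in the 250 bases before the start of each gene in the RefSeq promoter table (build GRCm38.p6). Of all 27025 genes with such a window, 8.63% held a match, against 3 of the 31 Wnt genes with one. The 3 were Dkk1, Wnt5b and Wnt11, each with 1 match. Wnt5b had 3 windows and Wnt11 had 2, at different starts, and the match lay in 1 window of each. A gene with more windows has more room for a match. These 3 genes rose from day 0 to day 6 in wild-type cells, and so did Axin2, Lef1 and Nkd1, whose windows held none. Sp5 and T, which are among the best known Wnt targets and appear beside them in the results, are shown for comparison. Each stretch has 60 bases and runs 5′ to 3′ in the direction of the gene, with the match in capitals.
Dkk1, chr19:30549580-30549639, minus strand: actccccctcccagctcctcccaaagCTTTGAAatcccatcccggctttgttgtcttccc
Wnt5b, chr6:119449424-119449483, minus strand: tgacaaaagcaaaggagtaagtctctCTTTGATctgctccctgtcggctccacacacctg
Wnt11, chr7:98835035-98835094, plus strand: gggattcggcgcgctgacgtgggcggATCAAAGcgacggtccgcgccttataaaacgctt
Sp5, chr2:70474793-70474852, plus strand: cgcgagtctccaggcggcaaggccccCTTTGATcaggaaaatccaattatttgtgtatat
T, chr17:8434173-8434232, plus strand: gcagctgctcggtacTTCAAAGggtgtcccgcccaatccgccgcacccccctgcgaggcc
The match began 117 bases before the start in Dkk1, 71 in Wnt5b, 51 in Wnt11, 104 in Sp5 and 235 in T. In Wnt11 and T it reads on the other strand, so ATCAAAG and TTCAAAG are printed. A match is a match of letters, and binding was not measured here. Among the 60 further Wnt pathway genes 43 had a window and 6 of them (14.0%) held a match.

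Probes of 12 of the 46 genes come in pairs, and 1 pair across genes stands apart. Frizzled receptors are alike in their coding sequence, and the Fzd7 probe A_51_P142107 (mm9 chr1:59541367-59541426, plus strand) and the Fzd2 probe A_51_P404077 (mm9 chr11:102467613-102467672, plus strand) share 42 of 50 overlapping bases, or 84.0%. The next best of 1641 pairs of probes from different Wnt genes shares 29 bases, and the median pair 21. Capitals mark the bases that match in the overlap.
Fzd7: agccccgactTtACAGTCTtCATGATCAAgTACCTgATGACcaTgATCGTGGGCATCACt
Fzd2: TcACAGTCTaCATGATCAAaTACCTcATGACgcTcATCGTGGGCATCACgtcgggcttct
The differences of this Fzd7 probe lay near those of Fzd2 in each comparison. From day 0 to day 6 it moved by 1.80 in wild type and -0.01 in R141C, against 1.85 and -0.21 for the Fzd2 probe. The other Fzd7 probe, A_52_P552665 (mm9 chr1:59543192-59543251), which represents the gene in all that follows, moved by 0.97 and 0.96. Whether the shared bases carry signal from one transcript to the other probe was not tested.

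**Figure D2:**
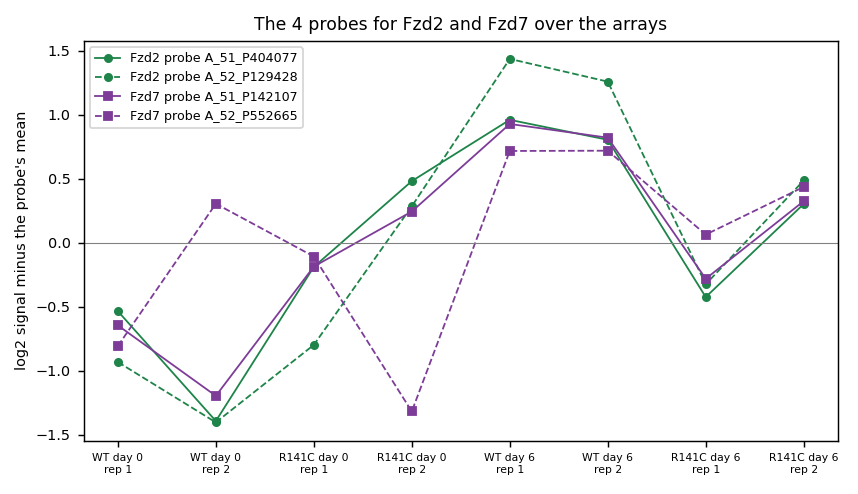
Log2 signal of the 4 probes for Fzd2 and Fzd7 on the 8 arrays, each minus its own mean over the arrays. The line of the Fzd7 probe A_51_P142107 runs beside that of the Fzd2 probe A_51_P404077, while the other Fzd7 probe is highest relative to them on replicate 2 of wild type at day 0 and lowest on replicate 2 of R141C at day 0.

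In wild-type cells, the comparison of day 6 with day 0 asked which parts of the pathway moved as the cells differentiated. Wnt2, Wnt5a, Dkk1, Sfrp5, Rspo3, Fzd4 and the feedback target Nkd1 rose by about 10-fold or more, while Wnt6, Wnt7a, Wnt7b and Wnt10a fell. Of the 44 tested genes 15 rose and 7 fell, 50% in all, where 24% of all tested genes changed (11% higher and 12.9% lower). The median difference was 1.02 over the 44 genes and -0.12 over all genes. Among those that rose were 4 of 17 tested ligands, 4 of 10 frizzled receptors, 3 of 7 antagonists and both feedback targets, 1 R-spondin and 1 TCF/LEF factor. Falls came from 4 ligands, 2 frizzled receptors and 1 antagonist, and no LRP co-receptor changed. Markers of other cell types moved with these changes. The summed level (log2) of 5 blood markers, globins among them, went from 0.22 and -0.72 to 7.95 and 9.13 in wild type and from 0.20 and -0.85 to 8.32 and 7.42 in R141C, with 4 of the 5 above background on both arrays of each day 0 group and all 5 on both of each day 6 group. The sum of the 5 visceral endoderm markers went from 0.72 and 2.02 to 4.67 and 4.76 in wild type. In R141C it went from 0.064 and 0.30 to 3.41 and 5.24. All 5 were above background at day 6, and 3 and 2 of them on both day 0 arrays of wild type and R141C. These markers did not move together. The day 0 sums lay close to Trf alone, whose mean fell from 1.33 to -1.54 in wild type and from 0.084 to -1.31 in R141C. Afp, Ttr, Apoa1 and Apob were measured higher at day 6 in both genotypes. The part of the blood and visceral endoderm markers in the changes of the Wnt genes was not tested.

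Wnt2, a ligand made in the early heart-forming region of the mouse embryo (probe at mm9 chr6:17938994-17939053), was not well above background on any day 0 array, where its log2 signals lay between -8.65 and -7.89. At day 6 it reached 0.00 and 0.19 in wild type. The rise in wild type was at least 99.2-fold (limma adjusted p = 0.000248), with no overlap between days. Wnt5a (chr14:29336664-29336723) went from -1.51 and -2.35 to 1.52 and 2.11 in wild type, a difference of 3.74 ± 0.34 (SE) or 13.4-fold (limma adjusted p = 0.0010). Wnt11, which takes part in heart development, moved from -2.93 and -2.34 to -1.11 and -0.78, by 1.69 ± 0.49 (SE, limma adjusted p = 0.0486). Wnt5b, the close relative of Wnt5a, went from -0.40 and -0.11 to 1.62 and 1.32, 3.30-fold higher (limma adjusted p = 0.0165). The call of Wnt11 was lost under 9 of 20 alternatives, where its adjusted p reached 0.207, and that of Wnt2 under none.

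Of the 17 tested ligands 4 fell. Wnt10a (chr1:74850633-74850692), a ligand of skin and tooth development, dropped from 1.1 and -1.21 to -4.34 and -4.48, or 20.5-fold (limma adjusted p = 0.0134). Its neighbour Wnt6 (chr1:74831461-74831520), an epithelial ligand, dropped from 1.77 and 0.28 to -1.86 and -1.64, or 6.85-fold (limma adjusted p = 0.0451). Wnt7b, known from lung and brain, went from -0.62 and -2.35 to -4.49 and -4.22, 7.30-fold lower (limma adjusted p = 0.0099). Wnt7a was at -1.75 and -3.99 at day 0 and not above background at day 6 (-5.52 and -5.17), so its fall was at least 5.47-fold (limma adjusted p = 0.0408). For all 4, replicate 1 at day 0 was the higher of the wild-type pair by 1.49 to 2.31, and every day 6 array lay below both. The calls of Wnt6 and Wnt7a were lost under 9 of 20 and 12 of 19 alternatives. Wnt3, which starts the primitive streak in the mouse embryo, did not pass the test and had overlapping groups, with 0.97 and -0.64 at day 0 and 0.45 and -0.09 at day 6.

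Among the frizzled receptors, Fzd4, known from blood vessels, rose most. It went from -1.13 and -0.63 to 2.54 and 2.61 in wild type (chr7:96557478-96557537), a difference of 3.46 ± 0.34 (SE) or 11.0-fold (limma adjusted p = 0.00128). Fzd1 moved from -0.29 and -1.44 to 1.87 and 1.99, or 6.94-fold (limma adjusted p = 0.0435). Fzd2, whose second probe differed by 2.52 in the same direction, moved from 3.20 and 2.34 to 4.69 and 4.54, or 3.60-fold (limma adjusted p = 0.0187), and Fzd3 rose by 1.13 on the log2 scale (limma adjusted p = 0.0286). Fzd9 fell from 0.89 and 0.74 to -1.46 and -1.47, or 4.85-fold (limma adjusted p = 0.0043). Fzd5 dropped from -1.63 and -0.41 to -2.91 and -3.37, or 4.34-fold (limma adjusted p = 0.0340). The receptors therefore moved in both directions, and Fzd6, Fzd7, Fzd8 and Fzd10 did not pass the test, with differences from -0.25 to 1.42.

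Dkk1, the secreted blocker of Lrp5 and Lrp6 (chr19:30621424-30621483), was at -3.56 and -4.62 at day 0 and at 2.21 and 2.20 at day 6 in wild type. The difference was 6.30 ± 0.41 (SE), or 78.6-fold (limma adjusted p = 0.000399). Sfrp5 (chr19:42272509-42272568), a Wnt-binding antagonist of foregut and heart precursors, rose from -1.06 and -1.06 to 4.07 and 4.15, or 36.0-fold (limma adjusted p = 0.0025). In both genes the arrays of day 6 nearly coincided, far above day 0. Dkk3, a divergent member of its family, rose from -0.40 and -0.64 to 1.66 and 2.07, or 5.22-fold (limma adjusted p = 0.0309). Sfrp4 was the antagonist that fell, from -0.02 and 1.30 to -2.07 and -2.67, or 8.04-fold (limma adjusted p = 0.0102). Sfrp1, Sfrp2 and Dkk2 did not pass the test.

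Rspo3, an R-spondin needed for blood vessel formation in the mouse placenta (chr10:29172930-29172989), rose from -2.66 and -2.33 to 2.63 and 2.55, or 33.9-fold (limma adjusted p = 0.0034), while Rspo1 and Rspo2 did not pass. Lef1, the TCF/LEF factor that is itself a Wnt target, rose from 2.01 and 2.78 to 3.79 and 3.75, or 2.59-fold (limma adjusted p = 0.0198). Tcf7 and Tcf7l1 did not pass. Of the feedback targets, Nkd1, which restrains Dishevelled, rose from -1.47 and -1.38 to 2.04 and 1.74, or 9.97-fold (limma adjusted p = 0.0013). Axin2, a scaffold of the complex that destroys beta-catenin, rose from -0.81 and -1.09 to 0.40 and 0.30, or 2.46-fold (limma adjusted p = 0.0320). Both targets and Lef1 thus changed in the same direction, Nkd1 by the largest amount of the 3.

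The counts in wild type depend on single arrays. Fewer genes rose without replicate 1 at day 0, and fewer rose and fell without replicate 1 or replicate 2 at day 6. Calls over all tested genes became fewer in the same settings, so the loss there was not particular to the Wnt genes. Fewer Wnt genes also fell with the replicate number added to the model, or without replicate 1 or replicate 2 of R141C at day 6. Calls over all tested genes did not become fewer in those settings. Of the 22 calls 8, those of Wnt2, Wnt5a, Fzd4, Fzd9, Dkk1, Sfrp5, Rspo3 and Nkd1, held under every alternative tried.

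In R141C cells, the same comparison gave 8 rises and 5 falls among the 44 genes, 29.5%, where 15.6% of all tested genes changed (7.6% higher and 8.03% lower). The median difference was 0.28, against -0.03 over all genes. Wnt2, Wnt5a, Wnt11, Fzd4, Dkk1, Rspo3 and Nkd1 rose and Wnt6, Wnt7a, Wnt7b, Wnt10a and Sfrp4 fell, all 12 in the direction of wild type. These 12 make up 54.5% of the wild-type calls and 92.3% of the R141C calls, where over all tested genes the calls shared in direction make up 52.9% and 81.1%. The other call was Lrp6, the co-receptor that carries the canonical signal, which rose by 0.89 on the log2 scale (limma adjusted p = 0.0368) from 2.02 and 2.08 to 3.13 and 2.76. Its second probe differed by 0.13, and the call was lost under 10 of 20 alternatives, the mean of the probes and a fold of at least 2 among them.

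The sizes for the 12 shared genes were as follows. Wnt2 reached -2.74 and -2.01 at day 6, at least 15.0-fold above day 0 (limma adjusted p = 0.000495). Dkk1 rose from -1.24 and -2.07 to 2.72 and 2.66, or 20.3-fold (limma adjusted p = 0.0017). In both genes day 0 and day 6 were apart by more than the replicates of either day. Rspo3 rose from -2.10 and -0.06 to 4.25 and 3.15, or 27.5-fold (limma adjusted p = 0.0062), and Wnt5a from -0.97 and -0.87 to 2.72 and 2.43, or 11.3-fold (limma adjusted p = 0.0019). Nkd1 rose from -1.10 and -0.14 to 2.60 and 2.47, or 8.91-fold (limma adjusted p = 0.0023), and Fzd4 from -1.40 and -0.97 to 1.23 and 2.06, or 7.11-fold (limma adjusted p = 0.0039). These 4 genes were apart between the days on every array. Wnt11 went from -3.30 and -2.93 to -1.95 and -0.46 (limma adjusted p = 0.0447), its day 6 arrays differing by 1.49. Its groups did not overlap either. The falls were led by Wnt10a, from 2.43 and 0.55 to -3.88 and -3.23, or 33.1-fold (limma adjusted p = 0.0119). Wnt7a fell at least 16.0-fold, from -1.92 and -1.14 to signals not above background (limma adjusted p = 0.0099), and Wnt7b 14.2-fold, from -0.42 and -0.66 to -4.41 and -4.34 (limma adjusted p = 0.0055). Both were at day 6 lower than on any day 0 array. Sfrp4 went from 0.14 and -0.57 to -2.70 and -3.67 (limma adjusted p = 0.0155), and Wnt6 from 3.78 and 1.70 to -0.84 and 0.29 (limma adjusted p = 0.0466), its replicates lying 2.08 apart at day 0. The calls of Wnt11 and Wnt6 in R141C were lost under 12 and 10 of 20 alternatives.

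There were 10 genes that passed in wild type but not in R141C, namely Wnt5b, Fzd1, Fzd2, Fzd3, Fzd5, Fzd9, Dkk3, Sfrp5, Lef1 and Axin2, and each had the smaller measured change in R141C. That does not show that the genotypes differ, since none of the 44 genes passed the test of that difference itself (an interaction of genotype and day), and no gene of the 25892 passed it (0%). At an unadjusted p under 0.05, 6 of the 44 genes and 5.64% of all genes passed it. The interaction was negative, with a smaller rise or larger fall in R141C, for 35 of the 44 genes, with a median of -0.63 against 0.08 over all genes. It draws on the wild-type day 0 arrays, between which several ligands differed widely. Sfrp5 went from -1.43 and -1.83 to -0.38 and 1.76 in R141C (limma adjusted p = 0.0502), and Lef1 from 2.84 and 2.83 to 4.20 and 3.72 (limma adjusted p = 0.0502), both close to the threshold. Axin2 was at 0.16 and 1.14 at day 0 and at 1.09 and 1.09 at day 6, a difference of 0.44 ± 0.33 (SE) whose groups overlapped. Its second probe differed by 1.06 in R141C. Fewer of the 44 genes fell without replicate 1 of R141C at day 0 or without replicate 2 of R141C at day 6. Calls over all tested genes in R141C became fewer there too.

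**Figure D3:**
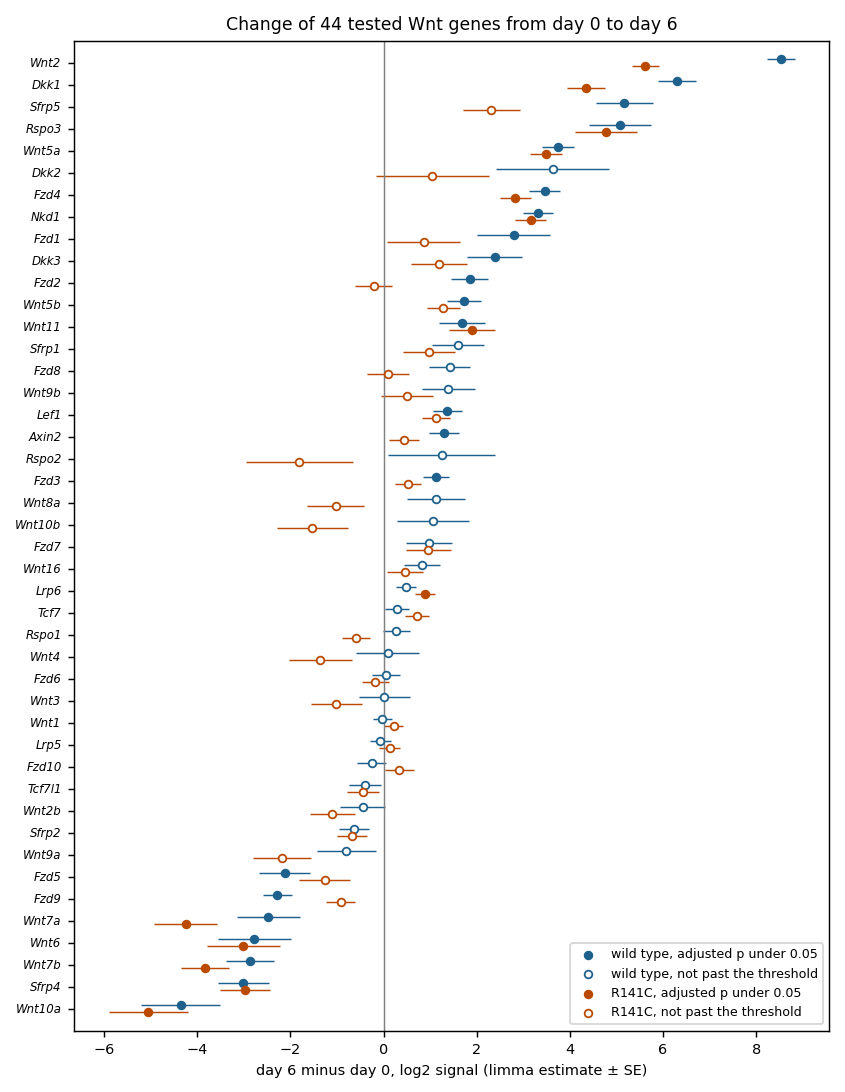
Change from day 0 to day 6 of the 44 tested genes on the log2 scale, with the standard error of limma, in wild type and in R141C. Filled points passed the test. Wnt2, Dkk1 and Sfrp5 lead the rises in wild type at 8.54, 6.30 and 5.17, the first of these a fitted value against day 0 signals that were not above background, and Wnt10a leads the falls in both genotypes.

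After 6 days of differentiation, mutant cells were set against wild-type cells to see how they stood in this pathway. Wnt2, Sfrp5, Rspo1 and Sfrp1 were measured lower in R141C, by 2.79-fold to 10.7-fold, and Fzd10 and Fzd9 higher, but none of the 44 genes passed the test in limma. The smallest adjusted p was 0.0740, and 17 of all 25892 genes (0.0657%) passed. At an unadjusted p under 0.05 there were 9 of the 44 genes, against 8.53% of all genes. The arrays of the 2 genotypes did not overlap for 28 of the 44 genes, 14 higher and 14 lower, where this held for 44.3% of all genes (27.8% higher and 16.5% lower). Among the 42 genes above background in both genotypes there were 13 higher and 13 lower. The median difference was -0.15 over the 44 genes and 0.07 over all genes. It was -0.08 over the 44 with the differences of Wnt2b and Wnt7a, above background in neither genotype, set to 0.

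Wnt2 read 0.00 and 0.19 in wild type and -2.74 and -2.01 in R141C, a difference of -2.47 ± 0.30 (SE), or 5.54-fold (limma adjusted p = 0.0740). Sfrp5 read 4.07 and 4.15 in wild type and -0.38 and 1.76 in R141C, a difference of -3.42 ± 0.62 (SE), or 10.7-fold (limma adjusted p = 0.216). For both genes the wild-type arrays nearly coincided, both R141C arrays lay below them, and the R141C arrays differed between themselves by 0.73 and 2.14. Rspo1, an R-spondin known from ovary development, read 1.37 and 1.27 in wild type and -0.37 and 0.05 in R141C, a difference of -1.48 ± 0.30 (SE, limma adjusted p = 0.269). On the other side, Fzd10, a receptor of the primitive streak and neural tube (chr5:129109798-129109857), read 2.07 and 2.24 in wild type and 4.15 and 3.34 in R141C, a difference of 1.59 ± 0.31 (SE, limma adjusted p = 0.258). Fzd9 read -1.46 and -1.47 against 0.06 and -0.91 (difference 1.04 ± 0.32, SE, limma adjusted p = 0.449), and Wnt5b 1.62 and 1.32 against 2.88 and 2.0 (difference 0.97 ± 0.36, SE, limma adjusted p = 0.526).

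Which array stood for R141C mattered. With 1 array left out at a time, the difference ranged from -2.84 to -2.10 for Wnt2, from -4.49 to -2.35 for Sfrp5 and from 1.19 to 1.99 for Fzd10. The largest of each, -2.84, -4.49 and 1.99, came without replicate 2 of R141C at day 6. The same pair of R141C arrays was uneven in other respects. Of the 44 genes 11 were more than 1 log2 unit higher in replicate 2 than in replicate 1 and 1 was lower by that much, where 5.83% of all genes were higher by as much. Cardiomyocyte markers moved with these differences, the summed level (log2) of the 6 markers being 7.72 and 8.05 in wild type and 2.05 and 6.18 in R141C. The 5 neural markers summed to 4.35 and 4.26 in wild type and 2.84 and 3.18 in R141C, with Pax6 above background on 1 of 2 R141C arrays. The 4 smooth muscle markers summed to 6.95 and 7.61 in wild type and 5.83 and 6.77 in R141C, with 3 above background on both arrays of each genotype, and the 5 epicardial markers to 5.55 and 5.32 against 4.93 and 4.93, with 4 and 3 above it. All 4 marker sums were lower in R141C without overlap, but not every marker was. Acta2 of the smooth muscle list and Wt1 and Upk3b of the epicardial list overlapped, and Upk3b was measured higher in R141C (0.56). The epicardial sum lay close to Krt19 alone, at 5.51 and 5.24 in wild type and 4.91 and 4.88 in R141C. The part of these markers in the Wnt2 and Sfrp5 values was not tested. In such bulk samples fewer cells of a type and less RNA per cell cannot be told apart.

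The roles were spread at day 6. Of the frizzled receptors 8 of 10 were measured lower in R141C, 5 of them without overlap, and 2, Fzd9 and Fzd10, higher without overlap. Of the antagonists 6 of 7 were lower, 4 of them without overlap, Dkk1 being the exception at 0.48 ± 0.41 (SE). Over all tested genes 16.5% were lower and 27.8% higher without overlap. The ligands were divided, with 8 higher and 9 lower, or 7 and 8 among the 15 above background in both genotypes. Both feedback targets were measured higher without overlap, Axin2 with 0.40 and 0.30 against 1.09 and 1.09 (difference 0.74 ± 0.33, SE, limma adjusted p = 0.613) and Nkd1 with 2.04 and 1.74 against 2.60 and 2.47 (difference 0.65 ± 0.33, SE, limma adjusted p = 0.660). Lef1 overlapped, with a difference of 0.19 ± 0.30 (SE). None of these passed the test.

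In undifferentiated cells, the genotypes were compared to see whether they already differed in these genes. No Wnt gene passed, nor did any of the 25892 genes (0%), while at an unadjusted p under 0.05 there were 11 of the 44 genes and 4.5% of all genes. The arrays of the genotypes did not overlap for 19 of the 44, 14 higher and 5 lower in R141C, where 28.8% of all genes did not overlap (14.5% higher and 14.3% lower). The median difference was 0.67 over the 44 genes and 0.0046 over all genes. Wnt2 was above background on no array at day 0, and Wnt2b, which passed the filter through the R141C day 0 arrays, on neither wild-type array. Of the other 15 tested ligands 13 were measured higher in R141C, 5 of them without overlap, and none was lower without overlap. In wild type, replicate 1 lay more than 1 log2 unit above replicate 2 for 8 of the 17 tested ligands. Among these 8 only Wnt3 was apart between the genotypes on every array. The part of this gap in the day 0 counts and median was not tested. Among all 41 genes above background in both genotypes, 12 were higher and 5 lower without overlap.

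Dkk1 had the smallest p. It read -3.56 and -4.62 in wild type and -1.24 and -2.07 in R141C, a difference of 2.44 ± 0.41 (SE), or 5.43-fold (limma adjusted p = 0.539). Axin2 (chr11:108812034-108812093) read -0.81 and -1.09 in wild type and 0.16 and 1.14 in R141C, a difference of 1.60 ± 0.33 (SE), or 3.03-fold (limma adjusted p = 0.858). Wnt5b read -0.40 and -0.11 against 0.84 and 1.46, 2.65-fold (limma adjusted p = 0.9995). All 3 were apart in every array, and the day 0 arrays of R141C bracketed the wild-type day 6 arrays of Axin2 (0.40 and 0.30). The other readouts were smaller, with Nkd1 at -1.47 and -1.38 in wild type and -1.10 and -0.14 in R141C (difference 0.81 ± 0.33, SE) and Lef1 at 2.01 and 2.78 against 2.84 and 2.83 (difference 0.44 ± 0.30, SE). Of the second probes, which were not tested, that of Nkd1 differed by -0.27 and those of Axin2 and Lef1 by 1.37 and 0.36. In the other direction Sfrp1 read -1.75 and -0.39 against -2.10 and -3.15 (difference -1.56 ± 0.56, SE), followed by Rspo1 with 0.79 and 1.29 against 0.13 and 0.72 and Fzd5 with -1.63 and -0.41 against -1.21 and -2.60. Each of these had a limma adjusted p of 0.9995, and the Fzd5 groups overlapped.

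Some primitive streak markers were also measured higher in R141C at day 0. The summed level (log2) of the 5 markers was 1.05 and 1.42 in wild type and 2.79 and 3.81 in R141C, with all 5 above background on both R141C arrays and 4 on both wild-type arrays, Mixl1 being above it on 1 of 2. T, the mesoderm factor among these markers and itself a Wnt target, read 0.40 and 0.97 in wild type and 2.56 and 3.63 in R141C, and Sp5, a transcription factor induced by Wnt, read 2.73 and 2.17 against 3.98 and 5.03. The differences were 2.41 ± 0.55 and 2.05 ± 0.54 (SE), each with a limma adjusted p of 0.9995. Among the other streak markers, Mixl1 (1.97) and Eomes (0.97) were higher without overlap, Gsc (0.56) and Mesp1 (-0.057) overlapped, and none of the 5 passed. The part of these markers in the day 0 values was not tested.

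**Figure D4:**
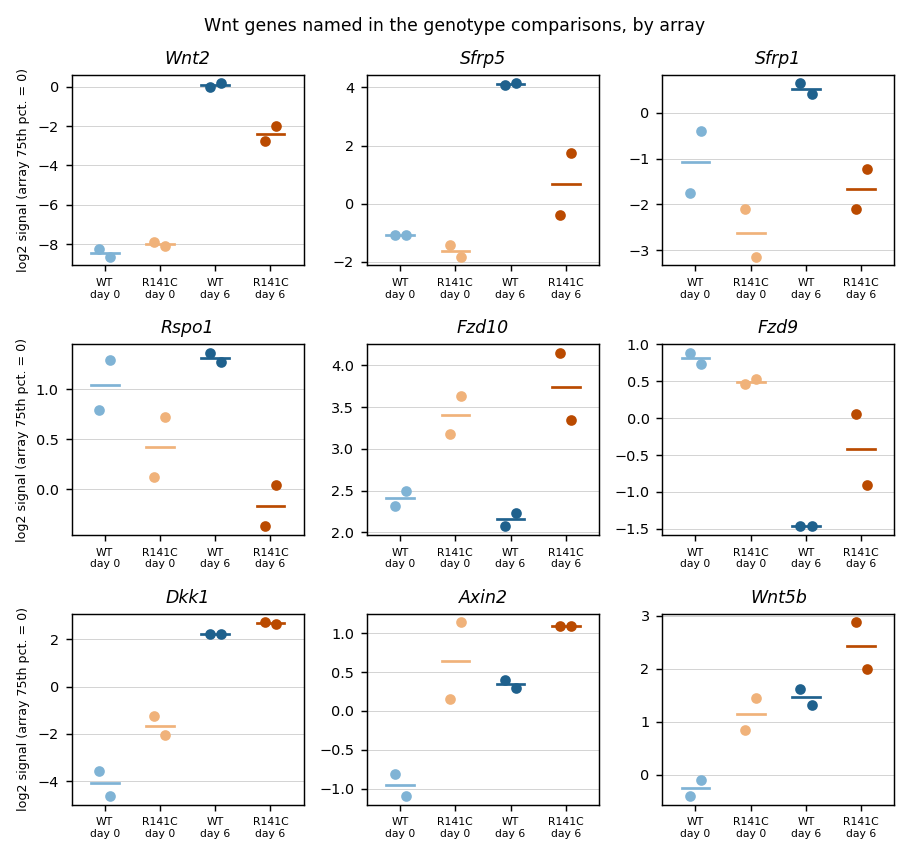
Log2 signal of 9 genes on each array (points, 2 per group) with the group mean (line), relative to the 75th percentile of the array. At day 6 the wild-type points of Wnt2, Sfrp5, Rspo1 and Fzd9 nearly coincide while the R141C points spread, and at day 0 the R141C points of Dkk1, Axin2 and Wnt5b lie above those of wild type. The vertical scale differs between panels.

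Several ligands differed widely between the replicates of wild type at day 0. Wnt3, Wnt4, Wnt6, Wnt7a, Wnt7b, Wnt9a, Wnt10a and Wnt10b, 8 of 17, were more than 1 log2 unit higher in replicate 1 than in replicate 2, by 1.49 to 2.58, where 6.81% of all tested genes were. Wnt10b, at -1.83 and -4.41, had the widest gap, and Wnt4, a ligand of kidney and gonad development, read 2.02 and 0.16. Of these 8 ligands only Wnt6 and Wnt10a showed such a gap in the same direction between the R141C replicates at day 0, of 2.08 and 1.88. At day 6 no ligand of wild type had a gap above 1. Falls of Wnt6, Wnt7a, Wnt7b and Wnt10a in wild type are therefore measured from day 0 values that spread widely, and all 4 lay below both day 0 arrays. Marker lists were higher in the same replicate, with summed levels (log2) in replicates 1 and 2 of 7.71 and 5.72 for smooth muscle, 4.91 and 2.85 for fibroblasts, 3.70 and 2.18 for cardiomyocytes and 5.5 and 4.17 for epicardium. Of these lists 3 of 4, 5 of 5, 6 of 6 and 3 of 5 markers were above background on both arrays. The visceral endoderm sum went the other way, with 0.72 and 2.02, but it lay close to Trf alone. Afp (-4.74 and -5.58) and Apob (-4.99 and -5.86), also above background on both arrays, were higher in replicate 1. The part of these markers in the ligand values was not tested.

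**Figure D5:**
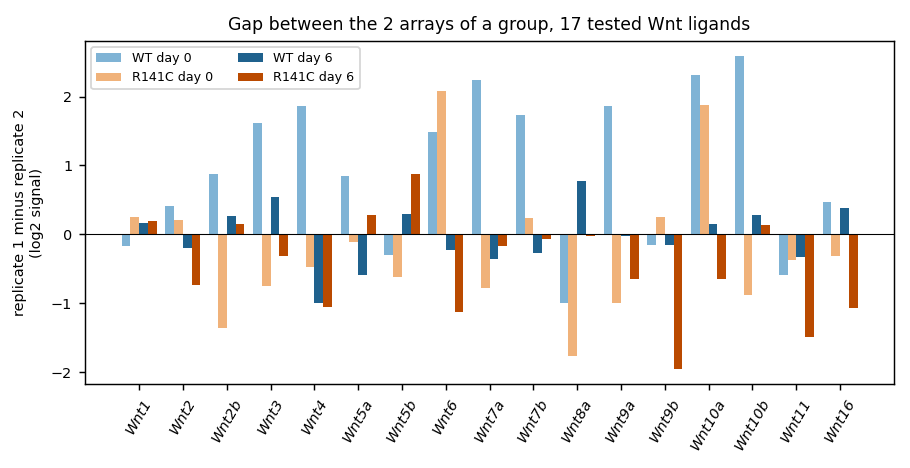
Difference between replicate 1 and replicate 2 of each group for the 17 tested ligands, on the log2 scale. The bars of wild type at day 0 exceed 1 for 8 ligands, and those of wild type at day 6 stay within 1 for all 17.

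The remaining tested ligands did not pass in any comparison. Wnt1 stayed between -0.65 and -0.20 on all 8 arrays, and its second probe was above background on no array. Wnt8a, a ligand of the posterior epiblast, read -2.12 and -1.12 in wild type and -1.07 and 0.70 in R141C at day 0, and -0.10 and -0.87 against -1.22 and -1.20 at day 6. Wnt9b, known from kidney development, read -5.04 and -4.89 against -3.02 and -3.28 at day 0, and -3.65 and -3.50 against -3.62 and -1.67 at day 6. For Wnt2b, both R141C day 0 arrays were above background and no other array was. Wnt9a, Wnt10b and Wnt16 had differences between the days of -0.80, 1.07 and 0.83 in wild type and of -2.18, -1.53 and 0.47 in R141C. In wild type the days overlapped for Wnt9a and Wnt10b.

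Around these genes, a list of 60 further Wnt pathway genes placed the changes in context. Of the 58 tested, 14 rose and 7 fell from day 0 to day 6 in wild type, and 9 rose and 3 fell in R141C, against the shares of all genes given above, and none passed between genotypes. Among secreted modulators, Cer1, an inhibitor of Nodal, BMP and Wnt ligands, was not above background at day 0 in either genotype and rose at least 363-fold in wild type (limma adjusted p = 0.0032) and at least 26.2-fold in R141C (limma adjusted p = 0.0424). Its R141C day 6 arrays read -3.90 and 0.77, which give bounds of 5.19-fold and 133-fold taken singly, and the R141C call was lost without any 1 of the other 6 arrays (limma adjusted p of 0.0632 to 0.150). Frzb, a further Sfrp family protein, rose by 7.13 in wild type and 5.05 in R141C on the log2 scale (limma adjusted p = 0.0015 and 0.0070), while Sostdc1, which passed the filter through its wild-type day 0 arrays and was above background on no other, read -5.20 and -5.60 there and -6.95 and -7.20 at day 6 (limma adjusted p = 0.0126), too close to background for a bound on the fold. The secreted antagonists outside the 46 genes thus also included large rises.

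Among receptors, Lgr5, which binds R-spondins, went from -4.12 and -5.12 to 0.71 and 0.64 in wild type and from -4.06 and -2.46 to 1.67 and 0.49 in R141C (limma adjusted p = 0.0025 and 0.0073). It rose beside its ligand Rspo3 in both genotypes. Ror2, a receptor of Wnt5a, rose by 1.90 in wild type (limma adjusted p = 0.0095), and Lgr6, which was not above background at day 6 in wild type, fell (limma adjusted p = 0.0054). Rnf43, which removes frizzled receptors from the surface, rose by 1.80 in wild type (limma adjusted p = 0.0062), while Kremen2, a partner of Dkk1, fell by 1.31 in wild type and 2.16 in R141C (limma adjusted p = 0.0178 and 0.0049). Inside the cell, Gsk3b rose by 1.33 in wild type (limma adjusted p = 0.0107), the co-repressor Tle4 fell by 1.83 and 1.41 in wild type and R141C (limma adjusted p = 0.0093 and 0.0304), and Bcl9 rose in both. The polarity genes Prickle1 and Prickle2 rose in both genotypes, Prickle2 in wild type from signals not above background and Prickle1 by 2.03 and 1.24 (limma adjusted p = 0.0047 and 0.0342), and Notum, an enzyme that inactivates Wnt ligands, fell by 0.90 in wild type (limma adjusted p = 0.0204).

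Genes reported elsewhere as Wnt targets moved both ways. Sp8, Cdx2, Apcdd1 and T rose in wild type, Sp8 by 3.59, Cdx2 by 3.08 and Apcdd1, a membrane inhibitor of the pathway, by 3.00 (limma adjusted p = 0.0120, 0.0128 and 0.0021). Cdx2 and Apcdd1 also rose in R141C, by 3.41 and 3.72 (limma adjusted p = 0.0133 and 0.0016). Myc and Ccnd1 fell in wild type by 1.19 and 1.05 (limma adjusted p = 0.0213 and 0.0153), so reported targets did not share a direction. Sp5 passed in neither genotype.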

How the data were processed

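The members and gene lists were chosen with earlier results of these data known. Per the file headers, the scanner files came from Agilent Feature Extraction 11.5.1.1, while the submitters' processing notes give 10.5.1.1. The deposited processed signal is an intensity with background subtracted, not normalized between arrays, and the deposited mean spot signal and local background are intensity values used in an alternative. The deposited flags (other) mark spots as outlier or well above background. A deposited series matrix of log2 values covers 36321 probes, and these correlated with the processed signal on the log2 scale at r of 0.9995 to 0.9999. Its filter is not given in the sources used here.

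Outlier spots were dropped, which removed 98 probes, spots of a probe were averaged, and the 75th percentile of the array was subtracted from each log2 signal. The brightest probe represents a gene, and it was tested if well above background in both replicates of 1 group or more. Probe positions are on mm9, per the file headers. The test was limma 3.58.1 (R 4.3.3, 4 group means, 4 residual and 2.70 prior degrees of freedom), two-sided, with Benjamini-Hochberg adjustment over all 25892 genes in each of 5 comparisons, and the steps were tested on simulated data. A fold against a group with no array above background is a bound, against the lowest signal among probes well above background, and is written as at least N-fold. The number of arrays limits the precision.

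Genes are named by role. Array values are given for up to 10 rises and 10 falls between the days with the largest change, for Axin2, Lef1 and Nkd1, for the 3 lowest p in each direction between genotypes, and for up to 3 passing pathway genes a role. Array values of Fzd2, Lrp6, Wnt1, Wnt3, Wnt4, Wnt8a, Wnt9b and Wnt10b, and the naming of Sfrp1 at day 6, Myc and Ccnd1, were chosen after their values were seen. Promoter sequence is RefSeq's (GRCm38.p6), and the windows of Axin2, Lef1 and Nkd1 held no match. Figures were drawn with matplotlib 3.10.9.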

Additional observations from a re-analysis of the deposited data

Results flagged for a closer look

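For 3 genes above background in both genotypes on both days, the R141C replicates lay wholly on one side of wild type in undifferentiated cells and wholly on the other side after differentiation. The change of the genotype effect was -2.16 on the log2 scale for Wnt8a (limma adjusted p = 0.875) and -2.05 for Fzd2 (limma adjusted p = 0.750), both higher in R141C at day 0 and lower at day 6. For Fzd9, which went from lower to higher, it was 1.36 (limma adjusted p = 0.826). None passed the test of that difference. Over all tested genes the arrays of the genotypes did not overlap for 28.8% at day 0 and 44.3% at day 6. How many of them changed sides was not counted, so it is not known whether the 3 genes stand out.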

How the results depend on the processing

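Of the 22 calls between the days in wild type, 8 held under every alternative, and of the 13 in R141C 7 did, namely Wnt2, Wnt5a, Wnt7b, Fzd4, Dkk1, Rspo3 and Nkd1. No member passed between genotypes at day 0 or in the difference of the effects under any alternative. With 1 array left out at a time, falls in wild type became fewer whichever array it was. Rises in wild type, and rises and falls in R141C, moved either way. Between genotypes at day 6, members passed only without replicate 2 of R141C at day 6, where more of all tested genes passed too. Without replicate 1 or replicate 2 of R141C at day 6, falls of members in wild type became fewer although calls over all tested genes did not.

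Whether the replicate numbers pair the cultures is not known. The differences between replicates 1 and 2 correlated between groups at r of -0.136 to 0.339, highest between day 0 and day 6 of R141C. These correlations cannot decide it, since the replicates may share other effects. With a replicate block, 4 genes fell in wild type in place of 7, while calls over all tested genes went from 6205 to 6244. Of 63 named results, called or not, 58 kept their direction and side of the threshold. Of the 22 calls in wild type and 13 in R141C, 5 were lost (Fzd5, Wnt6 and Wnt7a in wild type, Lrp6 and Wnt6 in R141C). No result gained a call. With the wild-type day 0 numbers crossed, chosen after seeing the data, 23 and 16 members were called between the days in wild type and R141C. Of all 25892 tested genes 6565 and 4304 were.

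Small differences turned sign. Between genotypes at day 6 Lef1 ranged from -0.046 (without R141C day 6 replicate 1) to 0.43 with 1 array left out, and Axin2 between the days in R141C from -0.051 (without R141C day 0 replicate 1) to 0.93. The change of the genotype effect ranged from -0.63 to 0.14 (without wild-type day 0 replicate 1) for Lef1 and from -0.64 to 0.32 (without R141C day 0 replicate 2) for Nkd1, and with the mean of its probes it was 0.48 for Nkd1. In R141C, Lef1 passed between the days with quantile normalization, normexp, the series matrix, the filter on all 8 arrays, the trend and robust settings and the crossed numbers. The count of called members under the 4 alternatives of scaling, background and source ranged from 18 to 22 in wild type and from 12 to 17 in R141C. Over all tested genes, 25010 to 25895 in number, it ranged from 5687 to 6195 and from 3714 to 4061. The cause of these shifts was not tested.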
